A study of Mus musculus with 24 samples.

Results

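Brain microvessels were compared for a change over time in the response to stroke. The stroke-by-time interaction of a gene was its stroke-minus-sham difference at 7 days minus its stroke-minus-sham difference at 24 h, taken on log2(normalized count + 1) in the hemisphere of the occlusion (ipsilateral). A positive value means that the stroke-minus-sham difference was more positive at 7 days, a negative value that it was more positive at 24 h. It rested on 12 of the 24 libraries of the series, 3 in each of 4 groups. All mice were male C57BL/6J aged 10 to 12 weeks. The stroke groups had transient middle cerebral artery occlusion (tMCAO) for 60 min by an intraluminal filament and were sampled after 24 h (labelled 1d) or after 7 days. The sham groups had the same operation with immediate withdrawal of the filament and were sampled at the same times. Mice were perfused before the vessels were isolated, and each library pooled the microvessels of 3 hemispheres, so the spread between libraries is a spread between pools, and the p-values measure only that spread. The paper describes 4 pools per group, of which 3 per group were analysed after samples had been identified as outliers. Pools left out in that way are not part of this spread. Stroke size was not measured in these mice, and mice had to survive to their time point.

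Microvessel preparations hold endothelial cells with the pericytes, smooth muscle cells, astrocyte endfeet and perivascular leukocytes attached to them. Endothelial cells of the brain seal the blood-brain barrier with tight junctions, efflux pumps and nutrient carriers, and Wnt/beta-catenin signalling maintains that state. After reperfusion, early cytokine release, oxidative stress and matrix breakdown are followed over days by clearance of debris and by cell division in the vessel wall. In RNA of a whole preparation, fewer cells of a type and less RNA per cell cannot be told apart.

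The totals ranged from 15924780 to 18787932 normalized counts per ipsilateral library. Mitochondrial transcripts took from 1.07% (tMCAO 7 days replicate 3) to 4.52% (tMCAO 24 h replicate 1) of them. The 12 defining endothelial markers summed to between 255019 and 359660 normalized counts in every library, and pericyte markers to between 62779 and 140548. None of the 12 endothelial, 10 pericyte or 9 smooth muscle markers passed the interaction test, and none of the listed markers was at 0 in all 12 libraries. Other cell types varied more between libraries of 1 group. The 10 choroid plexus markers summed to 5671, 76402 and 41167 in the sham 24 h libraries, and 7 erythroid markers to 24182, 45501 and 76862 in the sham 7 days libraries. Both sums had negative interactions, -2.48 and -3.08 on the log2 scale, and no single marker of either type passed the test. Their part in the results was not tested.

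Of 16037 genes tested with limma, 375 (2.34%) had a significantly higher and 896 (5.59%) a significantly lower stroke-minus-sham difference at 7 days than at 24 h. Together these were 1271 genes (7.93%). Counts of called list members below are to be set against these shares of all genes. A call required a Benjamini-Hochberg adjusted p below 0.05 and a change of over 1.5-fold. Unadjusted p was below 0.05 in 4168 genes. The median interaction of all genes was -0.04, with quartiles of -0.43 and 0.28. Large values were mostly negative, since 157 called genes lay below -2 and 21 above 2. The split between directions depended on the scaling. Centring each library on its median shifted the median of all genes by 0.105 on the log2 scale and gave 588 (3.67%) higher and 618 (3.85%) lower genes, so higher genes made up 48.8% of the calls in place of 29.5%.

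**Figure D1:**
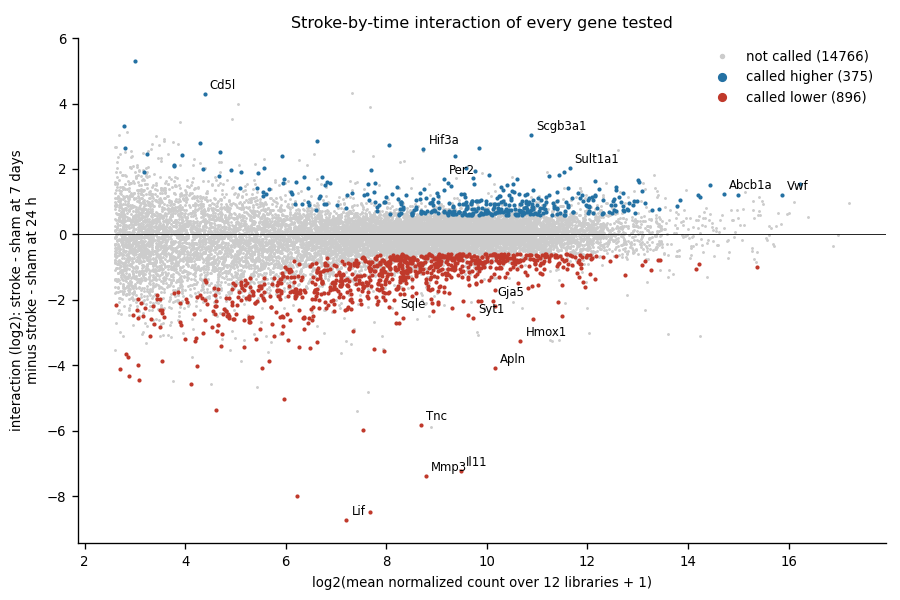
Interaction of each of the 16037 genes tested (vertical axis, log2) against log2 of its mean normalized count over the 12 ipsilateral libraries plus 1 (horizontal axis), with 375 genes called higher in blue and 896 called lower in red. The genes beyond -4 with high levels include Mmp3 at -7.37, Il11 at -7.24 and Tnc at -5.81.

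Single libraries weighed heavily on the number of calls. Higher genes numbered 142 without sham 24 h replicate 1, 144 without tMCAO 24 h replicate 1, 221 without sham 24 h replicate 3, 225 without tMCAO 24 h replicate 2 and 244 without tMCAO 7 days replicate 3. Lower genes numbered 423 without sham 24 h replicate 1, 402 without tMCAO 24 h replicate 1 and 503 without tMCAO 24 h replicate 2. In the other fits the counts stayed within 1.5 times the values above. No called gene changed sign in any of these fits. Of 97 called genes chosen by the naming rule, 48 kept their calls in all 12 fits and 26 in fewer than 6.

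**Figure D2:**
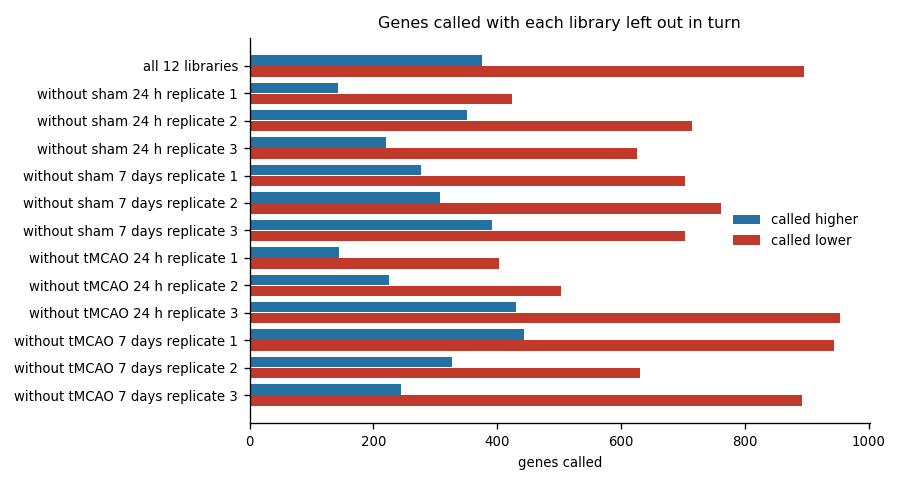
Number of genes called (horizontal axis) with all 12 ipsilateral libraries and with each library left out, blue for higher and red for lower. The shortest pairs of bars belong to sham 24 h replicate 1 (142 and 423) and tMCAO 24 h replicate 1 (144 and 402).

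The libraries of 1 group often stood apart. The 3 tMCAO 24 h libraries lay above the other 9 in 501 (55.9%) of the 896 lower genes, against 9.35% of all genes tested. The 3 tMCAO 7 days libraries lay below the other 9 in 298 of them (33.3%), against 5.7% of all genes. Among the 375 higher genes, the tMCAO 24 h libraries lay below the rest in 125 (33.3%, against 4.48% of all genes) and the tMCAO 7 days libraries above the rest in 72 (19.2%, against 2.96%). In lower genes the sham 24 h libraries lay below the other 9 in 143 (against 4.75% of all genes) and the sham 7 days libraries above them in 121 (against 2.34%). In higher genes the sham 24 h libraries lay above the other 9 in 31 (against 2.41%) and the sham 7 days libraries below them in 32 (against 1.6%). In 143 higher (38.1%) and 55 lower genes (6.14%) no group stood apart in the call's direction, against 89% and 79.7% of all genes. Calls and separations come from the same libraries, so these shares only describe where a separation lay.

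In the contralateral hemisphere, the same contrast with limma called 0 of 15816 genes (0%), and 712 had an unadjusted p below 0.05. The interaction was also tested on the difference between the ipsilateral and contralateral library of the same number. Whether same-numbered libraries came from the same mice is not stated in the sources used here. This called 375 genes higher and 511 lower of 15982. Of the 1271 ipsilateral calls, 1265 could be tested in that way, 1261 had the same sign and 564 (44.4%) were called again, which is 63.7% of the genes called between the hemispheres.

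Cytokines of the interleukin-6 family had strongly negative interactions. Of 21 tested members of the interleukin-6 family list, 3 were called, all lower: the cytokines Il6 (-8.49), Lif (-8.73) and Il11 (-7.24). Il11 (chr7:4772373-4782857, minus strand, mm10) was at 9, 30 and 7 normalized counts in the sham 24 h libraries, at 3160, 3280 and 1977 in tMCAO 24 h, at 5, 3 and 35 in sham 7 days and at 16, 10 and 10 in tMCAO 7 days. The tMCAO 24 h libraries thus stood far above 9 others that overlapped among themselves. The interaction was -7.24 +/- 1.0 (SE, n = 3 per group; limma adjusted p = 0.00274). Neither the 7 receptors nor the 6 signalling and feedback members were called, among them the shared receptor subunit Il6st (-0.37, adjusted p = 0.256) and the transcription factor Stat3 (-0.17, adjusted p = 0.814). Each of the 3 cytokine calls held in all 12 fits with 1 library left out. Il6 was at 4, 1 and 0 normalized counts in tMCAO 7 days, and Lif at 0, 7 and 16 in sham 24 h. The sizes of their interactions therefore depend on the added count of 1.

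Mmp3, a stromelysin that cleaves matrix proteins, was at 2, 7 and 25 normalized counts in sham 24 h, at 1892, 1996 and 1329 in tMCAO 24 h, at 14, 0 and 24 in sham 7 days and at 20, 3 and 7 in tMCAO 7 days. It was the only called member among 20 matrix proteases and their inhibitors (-7.37 +/- 1.53, adjusted p = 0.0154). That is 5% of the list, near the 5.59% of all genes called lower. The gelatinase Mmp9 (-1.35, adjusted p = 0.307) and the inhibitor Timp1 (-1.84, adjusted p = 0.216) did not pass. Timp1 was at 1048, 1595 and 971 in tMCAO 24 h and at 398, 180 and 163 in tMCAO 7 days, but its sham 7 days libraries ranged from 21 to 154. It was called without sham 7 days replicate 2, and in the difference between hemispheres (-2.35, adjusted p = 0.0192). Mmp3 lost its call in that difference, where 0 metalloproteinases were called lower by limma. The count of lower members was 3 without sham 7 days replicate 2 and 2 without sham 24 h replicate 3 or tMCAO 7 days replicate 1 or 3.

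Tenascin C (Tnc, chr4:63959785-64047015, minus strand, mm10), a matrix glycoprotein of wounds, was at 15, 18 and 37 normalized counts in sham 24 h, at 1465, 2351 and 879 in tMCAO 24 h, at 12, 22 and 46 in sham 7 days and at 29, 23 and 28 in tMCAO 7 days. As for Il11, 1 group stood apart and the others overlapped (-5.81 +/- 0.67, adjusted p = 0.00157). Of 38 basement membrane and matrix genes it was the only one called lower (2.63%, against 5.59% of all genes). The collagen chain Col4a4 (1.41) and the heparan sulfate proteoglycan agrin (Agrn, 0.64) were called higher (5.26%, against 2.34% of all genes). Col4a4 kept its call in 6 and Agrn in 3 of the 12 fits with 1 library left out. The acute-phase gene Saa3 had -3.49.

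Of 30 chemokine ligands, 6 (20%, against 5.59% of all genes) were called lower and 0 higher by limma, with a median of -1.74. Pf4 (Cxcl4), a chemokine of platelets and perivascular macrophages, was at 115, 247 and 372 normalized counts in sham 24 h, at 497, 441 and 418 in tMCAO 24 h, at 359, 260 and 475 in sham 7 days and at 117, 112 and 106 in tMCAO 7 days (-2.69 +/- 0.48, adjusted p = 0.00754). Its lowest values were those of tMCAO 7 days and of sham 24 h replicate 1. The monocyte attractants Ccl7 (-5.99) and Ccl12 (-3.29), the eosinophil attractant Ccl11 (-3.55) and the neutrophil attractants Cxcl3 (-5.36) and Cxcl5 (-4.12) were the other called members. Ccl2, the main monocyte attractant, was at 35, 40 and 904 in sham 24 h and at 267, 15 and 1170 in sham 7 days, and its interaction of -5.88 missed the threshold (adjusted p = 0.0854). Replicate 3 of both sham groups held the high values of Ccl2, which was called without sham 24 h replicate 3 or sham 7 days replicate 2. Cxcl3 was at 2 normalized counts or fewer outside tMCAO 24 h, so the size of its interaction depends on the added count of 1. Ccl12 kept its call in 2 of the 12 fits. The count of called chemokines was 2 without sham 24 h replicate 1 or tMCAO 24 h replicate 2, 3 without sham 7 days replicate 1, tMCAO 24 h replicate 1, or tMCAO 7 days replicate 2 or 3, and 10 without sham 7 days replicate 2.

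Genes for making ribosomes shared 1 direction. The ribosome biogenesis list holds nucleolar proteins, box C/D and H/ACA particles, processing factors and RNA polymerase I subunits. All 40 members tested had negative interactions, 32 were called lower, and the list's median was -0.94 against -0.04 for all genes. Nhp2, a core protein of H/ACA particles, was at 261, 314 and 286 normalized counts in sham 24 h, at 1067, 1022 and 777 in tMCAO 24 h, at 437, 403 and 434 in sham 7 days and at 492, 461 and 417 in tMCAO 7 days. The 2 groups at 7 days overlapped, while those at 24 h were far apart (-1.62 +/- 0.18, adjusted p = 0.00157). The most negative member was the pre-rRNA processing factor Rrp12 (-2.13), followed by the rRNA methyltransferase fibrillarin (Fbl, -1.81). The nucleolar chaperone Npm1 (-0.61) was near the fold limit. Leaving out 1 library gave between 24 and 34 called members, median centring gave 26, and the difference between hemispheres gave 18. The E-box CACGTG lay in 8 of 36 RefSeq promoters of the list (22.2%), against 7.15% of all promoters.

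The proteasome, which degrades ubiquitin-tagged proteins, behaved similarly but with smaller values. Of 48 genes, 22 were called lower and 0 higher by limma, with a median of -0.57 and 45 values below 0. The 14 subunits of the 20S core contributed 10 calls and the 18 subunits of the 19S cap another 10, led by the deubiquitinase Psmd14 (-0.99 +/- 0.16, adjusted p = 0.00475). Psmd14 was at 863, 850 and 826 normalized counts in sham 24 h, at 1924, 2170 and 1602 in tMCAO 24 h, at 1017, 986 and 1069 in sham 7 days and at 1265, 1121 and 1053 in tMCAO 7 days. None of the 3 interferon-induced immunoproteasome subunits was called. For Psmb8 (-0.40, adjusted p = 0.201) the sham libraries themselves differed between the times, at 1051, 1051 and 928 against 1796, 2229 and 1558. The proteasome count was 11 without sham 24 h replicate 1 or tMCAO 24 h replicate 1, 12 without tMCAO 24 h replicate 2, 12 after median centring and 7 when the 6 sham libraries served as 1 reference. The antioxidant response element TGACNNNGC, on either strand, lay in 7 of 48 promoters of the list (14.6%), near the 12.4% of all promoters.

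Cholesterol synthesis gave some of the smallest p-values of the whole table. The list covers the mevalonate and sterol enzymes and their control by SREBP2, a transcription factor released from the endoplasmic reticulum when sterols are low. All 22 members tested had negative interactions and 13 were called lower, with a median of -0.91. Squalene epoxidase (Sqle, chr15:59315081-59331192, plus strand, mm10), a rate-limiting enzyme, was at 171, 214 and 187 normalized counts in sham 24 h, at 497, 486 and 492 in tMCAO 24 h, at 321, 362 and 281 in sham 7 days and at 151, 186 and 132 in tMCAO 7 days. Stroke lay above sham in every library at 24 h and below it in every library at 7 days (-2.41 +/- 0.21, adjusted p = 0.000471). The same crossing was seen for the lanosterol demethylase Cyp51, at 341, 407 and 415 in sham 24 h, 655, 656 and 694 in tMCAO 24 h, 511, 562 and 613 in sham 7 days and 309, 289 and 312 in tMCAO 7 days (-1.67 +/- 0.15, adjusted p = 0.000471).

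Hmgcs1 (-0.92) and Hsd17b7 (-1.91) are enzymes of the pathway, and Insig1 (-0.82) retains SREBP2 in the endoplasmic reticulum. Sham libraries contributed to these values, since the median change of the sham libraries from 24 h to 7 days was 0.37 over the list. With the 6 sham libraries as 1 reference 7 members were called. Leaving out 1 library gave between 9 and 13. RefSeq promoters (GRCm38.p6, 250 bases before to 50 after the start site) were found for 16 of the 23 listed genes, 19 promoters in all. The motif CCAAT, on either strand, lay in 16 of them (84.2%), against 37.4% of all 32851 promoters. The sterol element TCACNCCAC lay in 1 of 19 (5.26%), against 1.24% of all. The 150 bases before the start site of 3 called members show the CCAAT matches, in capitals, where ATTGG is CCAAT on the other strand. They are Hsd17b7 (chr1:169969206-169969355, minus strand), Cyp51 (chr5:4104698-4104847, minus strand) and Mvd (chr8:122443423-122443572, minus strand).
Hsd17b7: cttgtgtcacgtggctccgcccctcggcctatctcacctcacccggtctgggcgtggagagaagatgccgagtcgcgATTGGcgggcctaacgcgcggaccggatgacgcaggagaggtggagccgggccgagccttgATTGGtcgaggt
Cyp51: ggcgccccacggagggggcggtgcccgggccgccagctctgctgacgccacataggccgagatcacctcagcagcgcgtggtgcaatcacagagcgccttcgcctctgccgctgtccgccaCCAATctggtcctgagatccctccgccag
Mvd: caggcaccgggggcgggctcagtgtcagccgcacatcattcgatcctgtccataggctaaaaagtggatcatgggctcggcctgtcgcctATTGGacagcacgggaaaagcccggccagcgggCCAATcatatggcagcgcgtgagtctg
A match is a description of these letters and not evidence of binding. Promoters shown here and below were picked because they hold the motif, so a match in each was fixed by the choice.

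**Figure D3:**
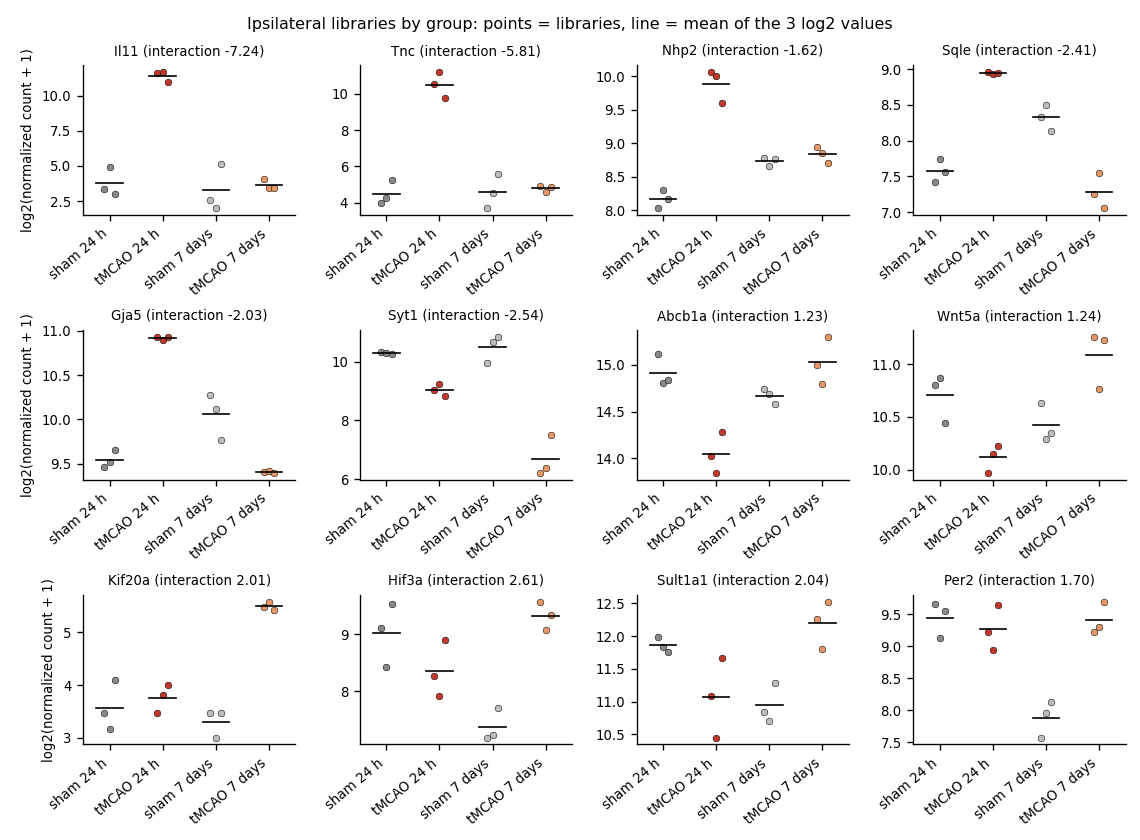
Value of each ipsilateral library (points, log2 of the normalized count + 1) in the 4 groups for 12 genes, with the mean of the 3 log2 values as a line. For Il11, Tnc and Nhp2 the tMCAO 24 h libraries stand highest, for Sqle and Gja5 stroke lies above sham at 24 h and below it at 7 days, and for Per2 the sham 7 days libraries alone are low (189, 246 and 280 normalized counts).

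Stress genes were called lower in smaller numbers. Of 29 genes of the integrated stress and unfolded protein responses, 9 were called lower and 1 higher, with a median of -0.65. The called lower genes included the mitochondrial folate enzyme Mthfd2 (-2.28), the asparagine synthetase Asns (-1.70) and the cystine transporter Slc7a11 (-1.62). Asns was at 301, 408 and 313 normalized counts in sham 24 h, at 945, 991 and 727 in tMCAO 24 h, at 315, 250 and 476 in sham 7 days and at 374, 280 and 183 in tMCAO 7 days, so only tMCAO 24 h stood apart. Slc7a11 differed in the other stroke group, with 772, 550 and 703 in tMCAO 7 days against 1665 to 3075 in all other libraries. Atf4, the transcription factor of the integrated stress response, had -0.79 and did not pass (adjusted p = 0.173). The count of lower genes was 3 without sham 24 h replicate 1, 4 without tMCAO 24 h replicate 1 and 5 without tMCAO 24 h replicate 2. The C/EBP-ATF element TGATGNAA, searched on both strands, lay in 5 of 28 promoters of the list (17.9%), against 3.97% of all promoters. It is shown in capitals in the 150 bases before the start sites of Asns (chr6:7693210-7693359, minus strand) and Slc7a11 (chr3:50443614-50443763, minus strand), the latter with 1 match on each strand.
Asns: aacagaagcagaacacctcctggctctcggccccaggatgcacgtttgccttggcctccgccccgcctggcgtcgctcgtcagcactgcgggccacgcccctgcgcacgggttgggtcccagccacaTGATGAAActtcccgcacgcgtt
Slc7a11: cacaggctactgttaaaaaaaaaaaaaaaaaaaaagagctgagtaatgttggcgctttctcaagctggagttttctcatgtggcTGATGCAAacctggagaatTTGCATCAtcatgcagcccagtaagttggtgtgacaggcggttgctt

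Among 22 genes of the oxidative stress response, 7 were called lower and 0 higher by limma (median -0.56). Heme oxygenase 1 (Hmox1) was at 248, 408 and 415 normalized counts in sham 24 h, at 6397, 7461 and 2069 in tMCAO 24 h, at 326, 278 and 427 in sham 7 days and at 679, 425 and 357 in tMCAO 7 days (-3.26 +/- 0.59, adjusted p = 0.00845). The quinone reductase Nqo1 (-1.77) and the sulfiredoxin Srxn1 (-2.04) are further targets of the factor NRF2. The count was 3 without sham 24 h replicate 1, tMCAO 24 h replicate 1 or 2, or tMCAO 7 days replicate 2 or 3, and 4 without sham 7 days replicate 1. Heat shock genes gave 5 lower calls among 21 (median -0.49). They were Hspa4 (-0.60), Hspa9 (-0.89), Hsph1 (-1.42) and the mitochondrial chaperonin pair Hspd1 (-0.88) and Hspe1 (-1.08), while the heat-inducible Hspa1a had -0.63 (adjusted p = 0.348). Of 33 hypoxia and glycolysis genes 5 were called lower, among them the glycolytic enzyme Gapdh (-1.37 +/- 0.27, adjusted p = 0.0127), which is often used as a reference gene. That count was 3 without sham 24 h replicate 1 or tMCAO 24 h replicate 1 or 2. Of 37 oxidative phosphorylation genes 36 had values below 0 with a median of -0.31, and 3 (8.11%) were called lower, near the 5.59% of all genes. None was called after median centring or without sham 24 h replicate 1, 8 were called without tMCAO 7 days replicate 1, and 1 without sham 24 h replicate 3, sham 7 days replicate 2 or 3, tMCAO 24 h replicate 1 or 2, or tMCAO 7 days replicate 2 or 3.

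Neuronal transcripts in the preparation had negative interactions. Of the 10 neuron markers, 6 were called lower, with a median of -1.47. Synaptotagmin 1 (Syt1, chr10:108497650-109010982, minus strand, mm10), a calcium sensor of synaptic vesicles, was at 1285, 1271 and 1224 normalized counts in sham 24 h, at 527, 611 and 456 in tMCAO 24 h, at 1004, 1624 and 1856 in sham 7 days and at 73, 83 and 180 in tMCAO 7 days. Both stroke groups lay below all sham libraries, with the lowest values at 7 days (-2.54 +/- 0.42, adjusted p = 0.00579). Snap25 of the vesicle fusion machinery (-2.04) and the vesicular glutamate transporter Slc17a7 (-2.33) were called as well. The 10 markers summed to 8181 to 9275 in sham 24 h, 3795 to 5077 in tMCAO 24 h, 10389 to 15709 in sham 7 days and 3212 to 4054 in tMCAO 7 days, and none was at 0 in all libraries.

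Glutamate receptor genes moved with these markers. Of 24 tested, 6 (25%, against 5.59% of all genes) were called lower and 0 higher by limma, with a median of -0.96. The NMDA receptor subunit Grin2a was at 130, 112 and 90 normalized counts in sham 24 h, at 48, 55 and 60 in tMCAO 24 h, at 119, 137 and 187 in sham 7 days and at 9, 10 and 18 in tMCAO 7 days (-2.51 +/- 0.38, adjusted p = 0.00419). The AMPA receptor subunit Gria2 had -1.81 and the obligatory NMDA subunit Grin1 -1.31, the last with a call in 2 of the 12 fits. The count was 3 without sham 24 h replicate 1 or 3, sham 7 days replicate 2 or tMCAO 24 h replicate 1. It was 2 in the difference between hemispheres, 3 with the replicate number as a block and 4 after median centring. With the 6 sham libraries as 1 reference it was 12. The part of the neuronal RNA share in these values was not tested.

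The artery gene Gja5 (chr3:96904693-97077416, plus strand, mm10), which encodes the gap junction protein connexin 40, had the smallest adjusted p of all genes. It was at 706, 731 and 803 normalized counts in sham 24 h, at 1944, 1911 and 1953 in tMCAO 24 h, at 1237, 1111 and 873 in sham 7 days and at 676, 680 and 672 in tMCAO 7 days. Stroke libraries lay above sham at 24 h and below it at 7 days, with little spread within either stroke group (-2.03 +/- 0.16, adjusted p = 0.000424). Of 22 Notch and arteriovenous genes it was called lower together with the Notch ligand of tip cells Dll4 (-0.90). Together they were 9.09% of the list, against 5.59% of all genes. Sox17, an arterial transcription factor downstream of Wnt signalling (0.90), and Vwf, the platelet-binding von Willebrand factor (1.19), were called higher (9.09%, against 2.34%). Dll4 and Sox17 each held their calls in 4 and Vwf in 3 of the 12 fits with 1 library left out.

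Of 25 angiogenesis genes 3 (12%, against 5.59% of all genes) were called lower and 0 higher by limma. Apelin (Apln), a peptide of sprouting endothelial cells, was at 188, 170 and 157 normalized counts in sham 24 h, at 6818, 3074 and 1958 in tMCAO 24 h, at 204, 126 and 325 in sham 7 days and at 296, 188 and 246 in tMCAO 7 days (-4.09 +/- 0.57, adjusted p = 0.0029). Vegfa (-1.60) differed mainly at 7 days, with 84, 102 and 65 in tMCAO against 252, 171 and 280 in sham. Dll4 was the third. The count was 1 without sham 24 h replicate 1 or tMCAO 24 h replicate 1 or 2. Angpt2, a destabilizer of vessels, had -2.24 with sham libraries between 819 and 4542 (adjusted p = 0.15). Among 18 coagulation and fibrinolysis genes, the urokinase Plau (-2.56 +/- 0.36, adjusted p = 0.00274), the protein C receptor Procr (-1.31) and the inhibitor Tfpi2 (-2.29) were called lower. Vwf of the same list was called higher (1.19). Lower calls made up 16.7% and higher calls 5.56% of the list, against 5.59% and 2.34% of all genes. Plau held its call in all 12 fits, Procr in 3 and Tfpi2 in 4. The lower count was 5 without sham 7 days replicate 2, 4 without tMCAO 7 days replicate 1, 3 without replicate 3 of sham 24 h or tMCAO 24 h, and 1 in each other fit.

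**Figure D4:**
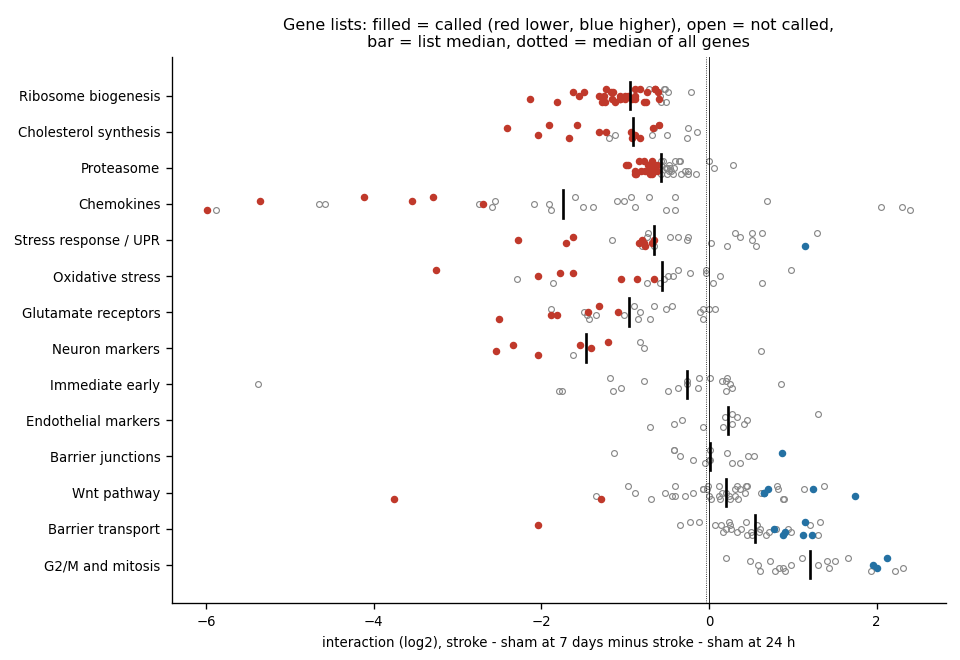
Interaction (horizontal axis, log2) of each tested member of 14 gene and marker lists, filled in red where called lower, filled in blue where called higher and open where not called, with the list median as a bar and the median of all genes (-0.04) as a dotted line. The medians run from -1.74 for chemokines to 1.21 for G2/M genes, and all 40 ribosome biogenesis and all 22 cholesterol genes lie left of 0.

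Transport genes of the blood-brain barrier had mostly positive interactions. Of 34 tested, 6 (17.6%) were called higher and 1 (2.94%) lower, against 2.34% and 5.59% of all genes. The median was 0.55, with 4 values below 0. The efflux pump P-glycoprotein Abcb1a (chr5:8660077-8748575, plus strand, mm10) was at 35432, 28601 and 29198 normalized counts in sham 24 h, at 16641, 14711 and 19865 in tMCAO 24 h, at 27471, 26411 and 24429 in sham 7 days and at 32770, 28391 and 40324 in tMCAO 7 days. The tMCAO 24 h libraries lay below all others, and at 7 days the stroke libraries lay above sham (1.23 +/- 0.25, adjusted p = 0.0138). The thiamine transporter Slc19a3 was at 3136, 2648 and 2920 in sham 24 h, 873, 839 and 1222 in tMCAO 24 h, 2163, 2366 and 3229 in sham 7 days and 1941, 1710 and 1901 in tMCAO 7 days (1.12 +/- 0.23, adjusted p = 0.0151). Its stroke libraries lay below sham at both times, by less at 7 days.

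The efflux pump Abcg2 (0.77), the amino acid carrier Slc7a5 (1.15), the insulin receptor Insr (0.91) and the caveolar coat protein Cavin2 (0.89) were the other higher calls, those of Slc7a5 and Cavin2 held in 3 of the 12 fits each. The glucose carrier Slc2a1 had 0.95 and missed the threshold (adjusted p = 0.282), with sham 7 days libraries at 88230, 89902 and 206001. Mfsd2a, a lipid carrier that limits transcytosis, had 0.61 (adjusted p = 0.18), though it was called in the difference between hemispheres (0.98, adjusted p = 0.0288), and the fenestral protein Plvap 0.50 (adjusted p = 0.563). In the difference between hemispheres 15 of these genes were called higher. The count of 6 became 2 without sham 24 h replicate 1 or tMCAO 24 h replicate 1, and 3 without sham 24 h replicate 3, sham 7 days replicate 1 or 2, tMCAO 24 h replicate 2 or tMCAO 7 days replicate 1.

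Only the scaffold protein Tjp1 (ZO-1) was called among 15 junction genes, at 18541, 15499 and 15465 normalized counts in sham 24 h, 10290, 9953 and 11739 in tMCAO 24 h, 14726, 13728 and 11506 in sham 7 days and 15530, 14437 and 17192 in tMCAO 7 days (0.87 +/- 0.19, adjusted p = 0.0204). Tjp1 was 6.67% of the list, against 2.34% of all genes called higher. It lost its call without sham 24 h replicate 1 or tMCAO 24 h replicate 1 or 2. Occludin (Ocln) passed the adjusted p (0.54 +/- 0.14, adjusted p = 0.0385) but was under the fold limit. It was called without tMCAO 7 days replicate 2. Its libraries were at 9477, 8064 and 8264 in sham 24 h, 5798, 5836 and 6192 in tMCAO 24 h, 7402, 8118 and 7988 in sham 7 days and 8089, 7234 and 8307 in tMCAO 7 days, overlapping only at 7 days. Claudin 5 (Cldn5), the main claudin of the barrier, had 0.27 (adjusted p = 0.548).

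Of 45 Wnt pathway genes, 5 (11.1%) were called higher and 2 (4.44%) lower, against 2.34% and 5.59% of all genes. The median was 0.20. The ligand Wnt5a (chr14:28504750-28527448, plus strand, mm10) was at 1779, 1864 and 1393 normalized counts in sham 24 h, at 1002, 1137 and 1199 in tMCAO 24 h, at 1580, 1253 and 1305 in sham 7 days and at 2447, 1735 and 2390 in tMCAO 7 days. Stroke lay below sham at 24 h and above it at 7 days without overlap (1.24 +/- 0.22, adjusted p = 0.00741). Wnt11 behaved alike, with 76, 48 and 75 in tMCAO 24 h and 130, 124 and 187 in tMCAO 7 days (1.74 +/- 0.39, adjusted p = 0.0212). The co-receptors Lrp5 (0.66) and Lrp6 (0.70) and the receptor-removing ligase Znrf3 (0.66) were also called. The ligand Wnt10a (-3.76) was at 18 normalized counts or fewer in every library, and Dkk3 (-1.29) belongs to the Dickkopf family. The higher count was 1 without sham 24 h replicate 1, 2 without tMCAO 24 h replicate 1 or 2, and 3 without sham 24 h replicate 2 or 3 or tMCAO 7 days replicate 3. After the length and GC correction it was 2, without Lrp5, Lrp6 or Znrf3. With the 6 sham libraries as 1 reference it was 3, with 0 receptors and cofactors called higher by limma. Wnt5a kept its call in all 12 fits and Lrp5 in 3. In the difference between hemispheres 5 members of the list were called higher by limma. They included 0 ligands, so neither Wnt5a nor Wnt11 was called there.

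Mitotic genes were the most uniform positive group, at low counts. All 22 tested genes of G2/M and mitosis had positive interactions with a median of 1.21, and 3 of them were called, the kinesin Kif20a (2.01), the kinetochore protein Cenpf (2.13) and the proliferation marker Mki67 (1.96). Kif20a was at 10, 8 and 16 normalized counts in sham 24 h, at 10, 13 and 15 in tMCAO 24 h, at 10, 7 and 10 in sham 7 days and at 44, 47 and 42 in tMCAO 7 days (2.01 +/- 0.43, adjusted p = 0.017). Mki67 reached 62, 87 and 72 in tMCAO 7 days against 9 to 27 elsewhere. Ccna2 (2.22, adjusted p = 0.052, called without tMCAO 24 h replicate 2 and in the difference between hemispheres), Top2a (1.66, adjusted p = 0.103) and Cdk1 (1.30, adjusted p = 0.0796) did not pass. Of 21 genes of G1/S and replication, the cyclin Ccnd1 (-1.22) and the replicative helicase subunit Mcm3 (-0.68) were called lower.

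Over both phases the higher count was 1 without sham 24 h replicate 1 or 3, sham 7 days replicate 1, tMCAO 24 h replicate 1, or tMCAO 7 days replicate 2 or 3, and 5 without tMCAO 24 h replicate 2. Kif20a held in all 12 fits, Mki67 in 6 and Cenpf in 1. In the difference between hemispheres 2 G2/M genes were called higher, Ccna2 among them, so most of the 3 called genes lost their calls there. With the replicate number as a block 1 G2/M gene was called higher, and with the 6 sham libraries as 1 reference 9 were. The cell cycle element TTTGAA (CHR), on either strand, lay in 16 of 21 promoters of the G2/M genes (76.2%), against 17.9% of all promoters, and CCAAT in 19 (90.5%), against 37.4%. The promoter of Mki67 (chr7:135716380-135716529, minus strand) holds a CCAAT match and 2 CHR matches in the 150 bases before its start site.
Mki67: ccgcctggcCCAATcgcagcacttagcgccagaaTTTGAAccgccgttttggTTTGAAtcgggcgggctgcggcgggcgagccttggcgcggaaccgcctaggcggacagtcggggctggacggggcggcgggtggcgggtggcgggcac

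Of 27 genes of phagocytes and the resolution of inflammation, 3 were called higher and 1 lower (median -0.04). Cd5l, secreted by tissue macrophages, was at 99, 59 and 73 normalized counts in tMCAO 7 days and at 4 or fewer in the other 9 libraries (4.28 +/- 0.85, adjusted p = 0.0125). Arginase 1 (Arg1) had the reverse pattern, with 329, 349 and 189 in tMCAO 24 h and 7 or fewer elsewhere (-7.99 +/- 1.05, adjusted p = 0.00245). Both differences depend on the added count of 1, as groups are at or near 0, and both calls held in all 12 fits. The lipid receptor of microglia and macrophages Trem2 (1.24) was at 314, 256 and 408 in tMCAO 7 days and at 104 to 190 elsewhere, and the cholesterol exporter Abcg1 had 0.67. Trem2 kept its call in 4 and Abcg1 in 1 of the 12 fits. The higher count was 1 without sham 24 h replicate 2 or 3, sham 7 days replicate 2 or 3, tMCAO 24 h replicate 1, or tMCAO 7 days replicate 1 or 3, and the lower count 3 without sham 7 days replicate 2 and 2 without tMCAO 24 h replicate 3. Gpnmb, a gene of lipid-laden phagocytes, had 4.32 without passing (adjusted p = 0.192), with sham 24 h libraries spread from 4 to 191.

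Of 20 complement genes, 2 (10%) were called higher, among them C4b (1.22), against 2.34% of all genes, and 2 (10%) lower, properdin (Cfp, -1.29) and the receptor subunit Itgam (-1.69), against 5.59%. These few calls were not stable. The higher count was 0 without tMCAO 24 h replicate 1, and 1 without sham 24 h replicate 1 or 3, sham 7 days replicate 1 or 2, or tMCAO 24 h replicate 2. The lower count was 0 without sham 24 h replicate 1, sham 7 days replicate 1 or 3, or tMCAO 24 h replicate 1. In the difference between hemispheres 0 members were called by limma in either direction, and C4b had -0.0080 (adjusted p = 0.991). C4b kept its call in 6 and Itgam in 8 of the 12 fits. C4b was at 1200, 1209 and 1130 normalized counts in tMCAO 7 days and at 390 to 715 in the other 9 libraries. Itgam was at 252, 195 and 231 in tMCAO 24 h and at 101, 93 and 49 in tMCAO 7 days. None of the 10 microglia, 12 macrophage and monocyte or 9 neutrophil markers tested was called by limma. Summed macrophage and monocyte markers ranged from 10316 to 19854 in tMCAO 24 h and from 6975 to 10832 in tMCAO 7 days. The summed microglia markers ranged from 60883 to 74079 and from 38123 to 47979. In sham they ranged from 35148 to 44876 at 24 h and from 28327 to 39186 at 7 days. The interaction of the microglia sum was -0.47, but single microglia markers had a median of 0.55, with 3 of 10 below 0. The part of these cells in the results was not tested.

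For some genes the sham libraries carried the interaction. The interaction is the change of the stroke libraries from 24 h to 7 days minus the change of the sham libraries. In 190 of the 1271 called genes (14.9%) the sham libraries contributed more than 50% of it, 108 of them higher and 82 lower. The median sham share was 34.4% in higher and 23.1% in lower genes. Per2 (chr1:91415982-91459324, minus strand, mm10), a core component of the circadian clock, was at 803, 557 and 751 normalized counts in sham 24 h, at 595, 489 and 795 in tMCAO 24 h, at 189, 246 and 280 in sham 7 days and at 598, 630 and 827 in tMCAO 7 days. Of its interaction of 1.70 +/- 0.30 (adjusted p = 0.00732), 91.6% came from the sham libraries. With all 12 libraries it was the only call among 18 clock genes (5.56%, against 2.34% of all genes called higher). The count was 5 without tMCAO 7 days replicate 1, 3 without tMCAO 24 h replicate 3 or with all 24 libraries in the fit, and 2 after median centring or without replicate 2 of either sham group.

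Hif3a (chr7:17031507-17062427, minus strand, mm10), a member of the hypoxia-inducible factor family, was at 555, 343 and 740 normalized counts in sham 24 h, 309, 240 and 475 in tMCAO 24 h, 145, 149 and 209 in sham 7 days and 761, 536 and 647 in tMCAO 7 days (2.61 +/- 0.41, adjusted p = 0.00476). Sult1a1, a sulfotransferase on the glucocorticoid list, was at 4055, 3647 and 3476, at 2164, 1397 and 3260, at 1833, 1675 and 2501 and at 4891, 3580 and 5901 in the same order (2.04 +/- 0.38, adjusted p = 0.00975). In both genes stroke exceeded sham only at 7 days, and the sham share was 63% and 44.7%. The transcription factor Klf9 (1.20) was the other call among 14 glucocorticoid-responsive genes. That count of 2 was 4 without sham 7 days replicate 3, 1 without sham 24 h replicate 1 or tMCAO 24 h replicate 2, and 0 by limma with the 6 sham libraries as 1 reference. The largest sham shares, over 100%, were those of Cpt1b (143%), Jak3 (124%), Tcf23 (123%), Scgb3a1 (115%) and Clk4 (101%), whose sign turned when the 6 sham libraries served as 1 reference.

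Scgb3a1, a secretoglobin, was at 661, 2015 and 1246 normalized counts in sham 24 h, at 3353, 3519 and 3095 in tMCAO 24 h, at 56, 94 and 207 in sham 7 days and at 4942, 2006 and 1424 in tMCAO 7 days. The sham libraries did not overlap between the times, whereas the stroke libraries did. The interaction was 3.05 +/- 0.74 (adjusted p = 0.027), and it kept its call in 6 of the 12 fits. Vwf had a sham share of 69.9%. Sham at 24 h and sham at 7 days also differ in the time since surgery, and labels give no date or hour of sampling, so a change of sham with recovery and a difference between collection days cannot be told apart.

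**Figure D5:**
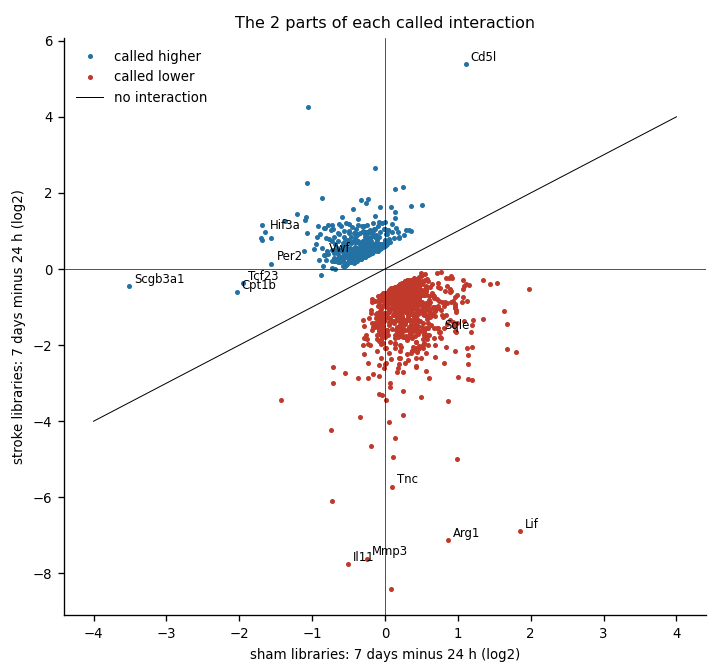
Change of the sham libraries (horizontal axis, log2) and of the stroke libraries (vertical axis, log2) from 24 h to 7 days for the 1271 called genes, blue for higher and red for lower, with the line on which both changes are equal. Il11 and Tnc lie below 0 near a sham change of 0, whereas Scgb3a1 (-3.51 in sham, -0.46 in stroke) and Per2 (-1.56 in sham, 0.14 in stroke) lie left of 0.

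Early-response genes did not pass, and their sham libraries spread widely. None of 21 immediate early genes was called by limma with all 12 libraries (median -0.26). Without sham 7 days replicate 2, 3 were called lower and 1 higher. A single one was called lower without tMCAO 7 days replicate 2, and higher without tMCAO 7 days replicate 1, after median centring or after the length and GC correction. The 6 sham libraries as 1 reference gave 2 lower and 1 higher. Fos had -1.15 +/- 0.94 (adjusted p = 0.472), with sham libraries from 102 to 867 normalized counts. P-selectin (Selp), an endothelial adhesion receptor for leukocytes, was at 36, 218 and 152 in sham 24 h, 2519, 2890 and 2406 in tMCAO 24 h, 326, 11 and 582 in sham 7 days and 1660, 855 and 205 in tMCAO 7 days (-2.26 +/- 1.73, adjusted p = 0.439). Metallothionein 2 (Mt2) ranged from 879 to 20624 among the sham 7 days libraries (-2.29 +/- 1.52, adjusted p = 0.365). The adhesion molecule Icam1 had 0.20 +/- 0.27 (adjusted p = 0.679), and lipocalin 2 (Lcn2) -0.06 +/- 1.34 (adjusted p = 0.983). In the difference between hemispheres, Selp (-4.57, adjusted p = 0.0314) and Icam1 (-1.05, adjusted p = 0.0481) were called lower. For Icam1 the negative difference came with a contralateral interaction of 1.25 +/- 0.19 (limma adjusted p = 0.563), while its ipsilateral value was not below 0. The spread of Selp and Lcn2 within the 7 day groups exceeded their interaction.

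The remaining lists held few calls. Itgam was the only call among 17 leukocyte adhesion genes (5.88%, near the 5.59% of all genes called lower). The count was 0 without sham 24 h replicate 1, sham 7 days replicate 1 or 3, or tMCAO 24 h replicate 1, and 2 without tMCAO 24 h replicate 3 or tMCAO 7 days replicate 2. The difference between hemispheres called 3 of these genes lower, the endothelial receptors Selp, Sele and Icam1, and not Itgam. For Icam1 the ipsilateral interaction was 0.20 and the contralateral one 1.25. The integrin subunit Itgb2 had -0.71 (adjusted p = 0.254). None of 16 matrix integrins passed, among them Itga5 with -0.72 (adjusted p = 0.0635), which was called without tMCAO 24 h replicate 3 or tMCAO 7 days replicate 1, and in the difference between hemispheres (-0.72, adjusted p = 0.0372). Of 28 interferon-induced genes, Samhd1 was called higher, at 1985, 2196 and 2243 normalized counts in tMCAO 24 h and 3870, 3718 and 4390 in tMCAO 7 days (0.63 +/- 0.13, adjusted p = 0.016), and Ifi27l2a lower (-1.63, in 2 of the 12 fits). Each of these calls was 3.57% of the interferon list, against 2.34% of all genes called higher and 5.59% called lower. Samhd1, a dNTP hydrolase that restricts viruses, lost its call without sham 7 days replicate 1, tMCAO 24 h replicate 1 or tMCAO 7 days replicate 3. H2-T23 (0.65) was the only call among 16 antigen presentation genes (6.25%, against 2.34% of all genes called higher). This call was lost without sham 24 h replicate 1 or 3, sham 7 days replicate 1, tMCAO 24 h replicate 1 or tMCAO 7 days replicate 3. The mitophagy kinase Pink1 was called alone among 15 genes of its list, at 6908, 6318 and 6413 in sham 24 h, 3664, 3782 and 4487 in tMCAO 24 h, 5470, 6933 and 6444 in sham 7 days and 5847, 5266 and 6944 in tMCAO 7 days (0.66 +/- 0.18, adjusted p = 0.0446). Its groups overlapped at 7 days and were apart at 24 h. The call was 6.67% of the list, against 2.34% of all genes called higher. It held in 3 of the 12 fits, those without sham 7 days replicate 2, tMCAO 24 h replicate 3 or tMCAO 7 days replicate 2.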

How the data were processed

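Messenger RNA of mouse brain microvessels was sequenced from stranded libraries. Per the labels, the authors aligned reads with STAR 2.5.2b to mm10 (GRCm38), counted them per gene with featureCounts 1.5.1 and normalized them with DESeq2 1.6.2. The study's methods name other releases of STAR and DESeq2. The deposited values are counts divided by size factors and rounded to whole numbers, treated here as a score and not as raw counts, so count models were not used and raw depth is unknown. The deposited table holds 17270 genes and 24 libraries, of which 12 ipsilateral ones were fitted.

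Genes with a mean above 5 over the 12 libraries were tested on log2(value + 1) with limma 3.58.1 (R 4.3.3; moderated with a mean-variance trend), with 4 group means and 1 contrast. Calls required a Benjamini-Hochberg adjusted p below 0.05, two-sided, and over 1.5-fold. The interaction is reported with its standard error (SE). On simulated data, calls recovered 41% of 100 genes given a log2 interaction of 1 and 66.3% of 98 given 2. They included 2 of 16143 unchanged genes. Noise was drawn independently for each gene and library, and 200 genes were changed, in tMCAO 7 days only. Deviations shared by many genes of a library were not simulated, so these rates may not hold for the real libraries. Named genes are the 10 highest and 10 lowest calls with a mean of at least 50 over all libraries and 5 in each group, the extreme and best-known members of each list, genes named by the study, defining markers and the 5 calls with the largest sham share. Members and gene lists were chosen with earlier results of these data known, and lists are described by counts and medians. Alternatives were other pseudocounts, filters, scaling, spread estimates, a replicate block, a shared sham reference, a length and GC correction and each library left out. The difference between hemispheres was added after seeing the data. Some genes that meet the naming rule are not reported here. Promoter sequences are from RefSeq (GRCm38.p6).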

Additional observations from a re-analysis of the deposited data

Results flagged for a closer look

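The stroke effect differed between 24 h and 7 days, by a test of the difference itself, in 375 genes that were higher and 896 that were lower at 7 days. The 10 highest of these among well-measured genes were Scgb3a1 (3.05), Clca3a1 (2.85), 2810029C07Rik (2.73), Doc2b (2.65), Hif3a (2.61), Lao1 (2.39), the pseudogene Ccl19-ps1 (2.39), Sult1a1 (2.04), Ptpru (2.03) and Scube2 (1.96). Hif3a, Ccl19-ps1, Sult1a1 and Ptpru kept their calls in all 12 fits with 1 library left out. The others kept them in 6 (Scgb3a1), 5 (Scube2), 3 (Clca3a1, 2810029C07Rik, Doc2b) and 2 (Lao1) of them. Scgb3a1 lost its call without sham 24 h replicate 2 or 3, sham 7 days replicate 1 or 2, or tMCAO 24 h replicate 1 or 2. Scube2 lost it without sham 24 h replicate 1 or 2, sham 7 days replicate 1 or 2, tMCAO 24 h replicate 1 or 2, or tMCAO 7 days replicate 3. Clca3a1 kept its call without sham 7 days replicate 1, tMCAO 24 h replicate 3 or tMCAO 7 days replicate 2, 2810029C07Rik and Doc2b without sham 24 h replicate 2, sham 7 days replicate 3 or tMCAO 7 days replicate 2, and Lao1 without sham 7 days replicate 3 or tMCAO 24 h replicate 3. Reads of Ccl19-ps1 may be shared with near-identical Ccl19 copies, so its value is uncertain. Ptpru, a receptor tyrosine phosphatase, was at 890, 1173 and 753 normalized counts in sham 24 h, 656, 417 and 637 in tMCAO 24 h, 474, 419 and 421 in sham 7 days and 1419, 853 and 1054 in tMCAO 7 days.

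Among the 10 lowest were Mmp3 (-7.37), Il11 (-7.24), Ccl7 (-5.99), Tnc (-5.81), A730049H05Rik (-5.04), Apln (-4.09), Ccl11 (-3.55), Saa3 (-3.49) and Trank1 (-3.47). Saa3 kept its call in 7, Ccl11 in 5 and Ccl7 in 4 of the 12 fits, and the other 6 in all of them. All 3 lost their calls without sham 24 h replicate 1, tMCAO 24 h replicate 1 or 2, or tMCAO 7 days replicate 2 or 3, Ccl11 and Ccl7 also without sham 24 h replicate 2 or sham 7 days replicate 1, and Ccl7 without sham 7 days replicate 3. Trank1 differed from the rest in that tMCAO 7 days stood apart, at 4, 16 and 25 normalized counts against 74 to 167 in all other libraries.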

How the results depend on the processing

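Counts of higher and lower genes stayed within 1.5 times the values of 375 and 896 under a pseudocount of 0.5 (374 and 896), no filter, a minimum mean of 20, the fit of all 24 libraries, no mean-variance trend, no limit on the fold change and the length and GC correction. Median centring gave 588 higher and 618 lower genes. Leaving out each library in turn gave 142 to 443 higher and 402 to 954 lower genes, and 42.6% to 87.3% of the 1271 calls were shared. The deviations of same-numbered libraries had correlations from -0.285 to 0.408 (mean -0.034 over 18 pairs). Differently numbered pairs had -0.366 to 0.307 (mean 0.017 over 36 pairs). The highest correlation was that between replicate 3 of sham 24 h and replicate 3 of sham 7 days. Deviations were taken from the mean of each group, which ties both mean correlations together, so comparing them cannot decide whether same-numbered libraries deviated together. The fit with the replicate number as a block called 279 higher and 694 lower genes, 74% of the 1271 calls, and turned no sign. The 6 sham libraries as 1 reference gave 475 and 1261 genes, 61% of the 1271 calls.

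Of the 97 named genes called, 89 kept their calls after median centring, 90 after the length and GC correction, 69 without the trend, 75 with the block and 68 with 1 sham reference, and 48 in all 12 fits with 1 library left out. None changed sign except with 1 sham reference: Scgb3a1 (-0.46), Cpt1b (-0.61), Jak3 (-0.17), Tcf23 (-0.37) and Clk4 (-0.0080). Uncalled genes that changed sign were Psmb8 (0.46) and Icam1 (-0.19) with 1 sham reference and Lcn2 (0.042 after median centring, 0.054 after the length and GC correction). With 1 library left out, Stat3 ranged from -0.49 to 0.15 and Lcn2 from -1.45 to 0.97. The cause of these changes was not tested. The median SE was 0.60 for genes with a mean under 50 and 0.17 for genes with a mean of 1000 or more, so genes at low counts needed larger differences to be called.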

Other observations

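In the contralateral hemisphere, where limma called 0 genes at an adjusted p below 0.05, the smallest unadjusted p-values of all 15816 genes tested belonged to Icam1, with an interaction of 1.25 +/- 0.19 (adjusted p = 0.563), and Il11, with -2.87 +/- 0.50 (adjusted p = 0.568). Icam1 had 0.20 in the ipsilateral hemisphere.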
